A study of Homo sapiens with 2 samples.

Results

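The genes of collagens, integrins and matrix metalloproteinases, which build, grip and cut the matrix around cells, were examined in a map of JARID2 on chromatin. They were taken from the deposited list of JARID2 peaks by gene symbol, and the rule uses no measured value, though the families were picked with earlier results of these data known. Of 67071 peaks on the hg19 build, 235 carried such a symbol, spread over 63 genes. The families have 94 protein-coding genes in the RefSeq table of the GRCh38.p14 build, so 31 were given no peak. The data come from chromatin immunoprecipitation and sequencing (ChIP-seq) with a polyclonal JARID2 antibody in untreated MDA-MB-231 cells, an invasive, mesenchymal-like human breast cancer line. The labels also name 1 library of input DNA from untreated MDA-MB-231 cells, made with no antibody, which was not analysed here. With 1 ChIP library there was no replicate, so no test was run and every comparison is a description. Fold enrichment (a linear ratio of ChIP tags to the peak caller's background), tags per peak and the false discovery rate (FDR) are the authors' own values for each peak. The list holds no expression values, so the cell line was not checked against its markers.

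Collagens are trimers of triple-helical chains that form the fibres, sheets and anchors of the matrix. Integrins are receptors of 1 alpha and 1 beta chain that hold cells to collagen, laminin or fibronectin and signal inward. Matrix metalloproteinases (MMPs) are zinc proteases that cut collagen and other matrix proteins, and with integrins they serve the invasion of tumour cells. JARID2 is an accessory subunit of PRC2, the complex that methylates lysine 27 of histone H3. In mammals PRC2 tends to gather at silent promoters rich in CG dinucleotides.

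The sequences before the gene starts show how much these promoters differ in CG content. They are the 250 bases upstream of a RefSeq start (GRCh38.p14), printed 5′ to 3′ with each CG dinucleotide in capitals. The first, ITGAV, is shown because a peak overlapped the start of its longest listed transcript, and ITGB6 because it had the only peak at an FDR of at most 5%, an addition to the selection made after its value was seen. COL4A2, ITGA2B and ITGAE are shown because they too had peaks that overlapped a start. For ITGAE and COL4A2 the starts under those peaks lay at least 62.3 kb inside the outermost listed start. The letters below are thus not those under the ITGAE and COL4A2 peaks. For ITGA2B the starts belonged to listed transcripts of 5146 and 1489 bp, and its window was not placed relative to them. The ITGB6 peak lay at the start of a short listed transcript (13410 bp, against 98.6 kb for the longest). That start lies upstream of the start of the longest listed transcript, and the ITGB6 window was not placed relative to either. The table held no promoter for ITGB2, ITGA3 or COL8A1, which also had a peak over a start. Peak positions are on hg19 and were not compared base by base with these windows.
ITGAV (GRCh38.p14, chr2:186589806-186590055, + strand): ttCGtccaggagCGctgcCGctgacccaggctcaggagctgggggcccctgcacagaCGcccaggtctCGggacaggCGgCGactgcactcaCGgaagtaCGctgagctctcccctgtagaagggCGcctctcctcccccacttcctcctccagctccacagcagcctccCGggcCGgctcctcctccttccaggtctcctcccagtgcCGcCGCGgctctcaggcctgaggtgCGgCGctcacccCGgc
ITGB6 (GRCh38.p14, chr2:160200273-160200522, - strand): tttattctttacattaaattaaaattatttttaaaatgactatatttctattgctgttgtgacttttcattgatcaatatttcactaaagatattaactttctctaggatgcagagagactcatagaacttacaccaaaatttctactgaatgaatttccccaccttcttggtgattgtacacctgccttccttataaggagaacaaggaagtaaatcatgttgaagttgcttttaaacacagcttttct
COL4A2 (GRCh38.p14, chr13:110307034-110307283, + strand): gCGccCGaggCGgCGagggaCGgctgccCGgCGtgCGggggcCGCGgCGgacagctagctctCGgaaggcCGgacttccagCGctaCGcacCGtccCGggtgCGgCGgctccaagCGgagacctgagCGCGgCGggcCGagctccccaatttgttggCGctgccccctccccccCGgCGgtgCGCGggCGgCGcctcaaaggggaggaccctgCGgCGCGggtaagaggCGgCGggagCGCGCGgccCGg
ITGA2B (GRCh38.p14, chr17:44389650-44389899, - strand): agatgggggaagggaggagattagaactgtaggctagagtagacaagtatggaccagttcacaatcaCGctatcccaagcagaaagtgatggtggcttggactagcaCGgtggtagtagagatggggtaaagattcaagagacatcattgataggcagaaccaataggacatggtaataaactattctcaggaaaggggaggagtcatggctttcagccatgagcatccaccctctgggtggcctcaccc
ITGAE (GRCh38.p14, chr17:3801189-3801438, - strand): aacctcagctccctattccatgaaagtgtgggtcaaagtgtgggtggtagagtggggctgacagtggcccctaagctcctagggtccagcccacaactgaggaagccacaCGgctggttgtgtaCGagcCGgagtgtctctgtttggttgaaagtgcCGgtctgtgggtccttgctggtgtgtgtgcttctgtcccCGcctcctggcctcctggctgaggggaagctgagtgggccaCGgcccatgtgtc
The COL4A2 window had 40 CG dinucleotides and 78.8% G or C, and the ITGAV window 18 and 70.8%. The ITGAE window had 6 and 60%, ITGA2B had 2 and 48.8%, and ITGB6 had 0 and 30%. CG content thus ranged widely over the 5 windows.

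The peaks of these genes were about as weak as most of the list, with slightly lower fold enrichment and slightly more tags. Median fold enrichment was 5.72 (interquartile range 5.08 to 6.30, 235 peaks) for the 3 families, against 5.95 (5.28 to 6.85) for all 67071 peaks. The highest member value was 9.71, against 158.75 over the list. The top 25% of peaks by fold enrichment held 17.4% of member peaks, against 25.2% of all peaks. A median member peak held 14 tags, for which the 95% Poisson interval is 7.65 to 23.5, against 12 tags over the list. The median FDR was 45.2% for member peaks and 44.2% for all peaks. One member peak (0.426%) had an FDR of 5% or less, where the share over all peaks was 1.24%. With a limit of 20% there were 8 member peaks (3.40%), where the share over all peaks was 4.15%. Over the peaks of other protein-coding genes the shares were 2.13% at the 5% limit and 5.80% at the 20% limit. Well inside the 5% limit stood a peak of ITGB6 at 1.16%, and just outside it one of MMP27 at 5.13%. All intervals cover counting error only, since PCR copies are not independent molecules, and the library's depth is unknown.

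**Figure D1:**
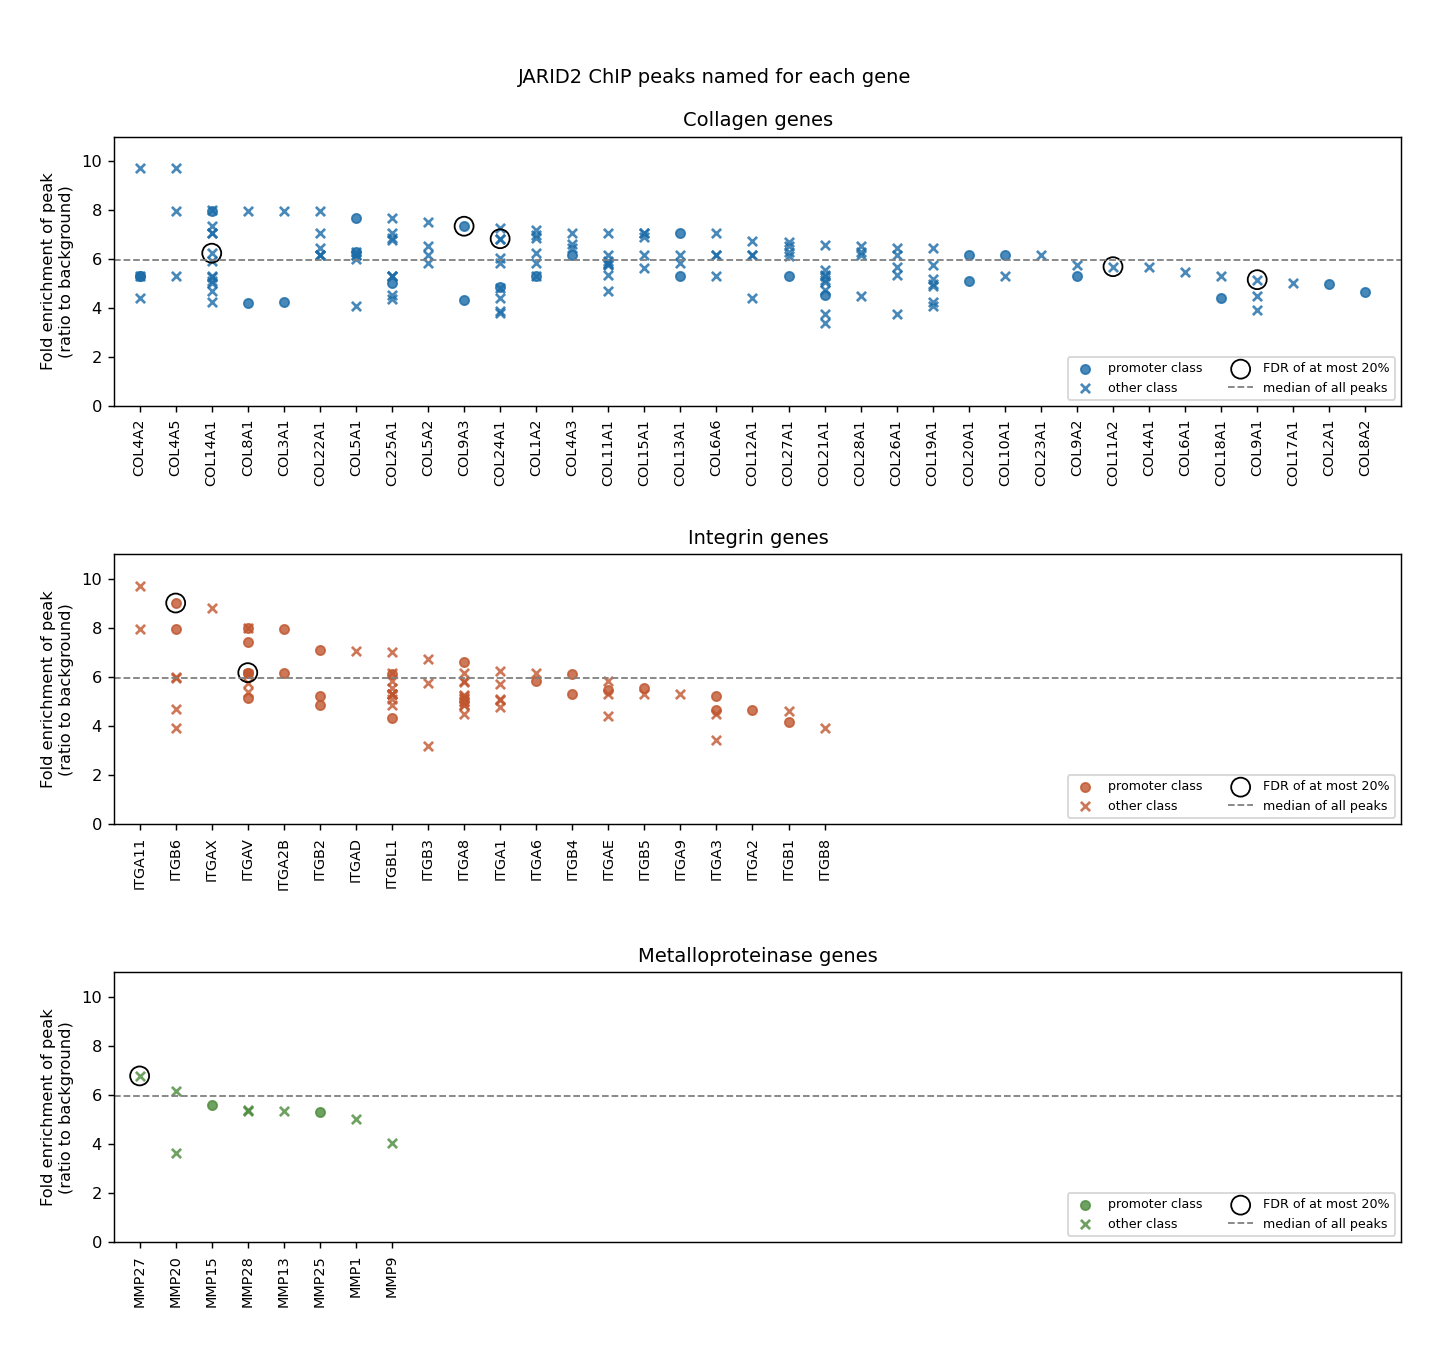
Fold enrichment of each peak (vertical axis, linear ratio to background) for every gene with a peak, ordered within its family by its highest peak; dots are promoter-class peaks, crosses other classes, black rings mark an FDR of at most 20%, and the dashed line is the median of all peaks, 5.95. Values lie between 3.20 and 9.71 over the 3 families, and 8 peaks carry a ring.

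Collagen and integrin genes were given a peak more often than MMP genes. Some peak was named for 35 of 44 collagen genes (79.5%, exact 95% interval 64.7 to 90.2), 20 of 27 integrin genes (74.1%, 53.7 to 88.9) and 8 of 23 MMP genes (34.8%, 16.4 to 57.3). Among all 20033 protein-coding genes the share was 56.3%. The integrin count includes ITGBL1, an integrin-like secreted protein that the symbol pattern takes in and that is no integrin chain. A promoter peak, meaning a peak the authors classed within 3 kb of a transcription start site (TSS), was present at 19 collagen genes (43.2%, 28.3 to 59.0), 13 integrin genes (48.1%, 28.7 to 68.1) and 2 MMP genes (8.70%, 1.07 to 28.0). Over the 3 families this made 34 of 94 genes (36.2%, 26.5 to 46.7), where 33.1% of all protein-coding genes had one. The share for the families together was close to that of all genes, with integrins and collagens above it and MMPs below. Neighbouring genes and genes of 1 cluster are not independent, and the differences between the families were not tested.

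Nearer the start site the families together stood somewhat below the share of all genes, which lay inside their intervals. Integrins stood above it and collagens and MMPs below, and these differences were not tested. A peak within 1 kb of a TSS was present at 18 of 94 genes (19.1%, 11.8 to 28.6), against 22.3% of all protein-coding genes. By family these were 9 of 27 integrin genes (33.3%), 8 of 44 collagen genes (18.2%) and 1 of 23 MMP genes (4.35%). A peak overlapping a TSS was present at 7 genes (7.45%, 3.05 to 14.7), against 13.8% of all, made up of 5 integrin genes (18.5%), 2 collagen genes (4.55%) and 0 MMP genes (exact upper limit 14.8%). These 7 were ITGA2B, ITGA3, ITGAE, ITGAV, ITGB2, COL4A2 and COL8A1. A promoter peak at an FDR of at most 5% was present at 1 gene (1.06%), against 2.47% of all, and a peak of any class at that limit likewise at 1 gene, against 3.01% of all. For intron, exon or untranslated-region (UTR) peaks, here called gene-body peaks, the families together stood above all genes. Such a peak was named for 41 genes (43.6%, 33.4 to 54.2), against 30.5% of all. By family these were 25 of 44 collagen genes (56.8%), 12 of 27 integrin genes (44.4%) and 4 of 23 MMP genes (17.4%), so MMPs stayed below. These counts go by the name of the peak, which can lie in another gene, as did the only gene-body peak of COL10A1.

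**Figure D2:**
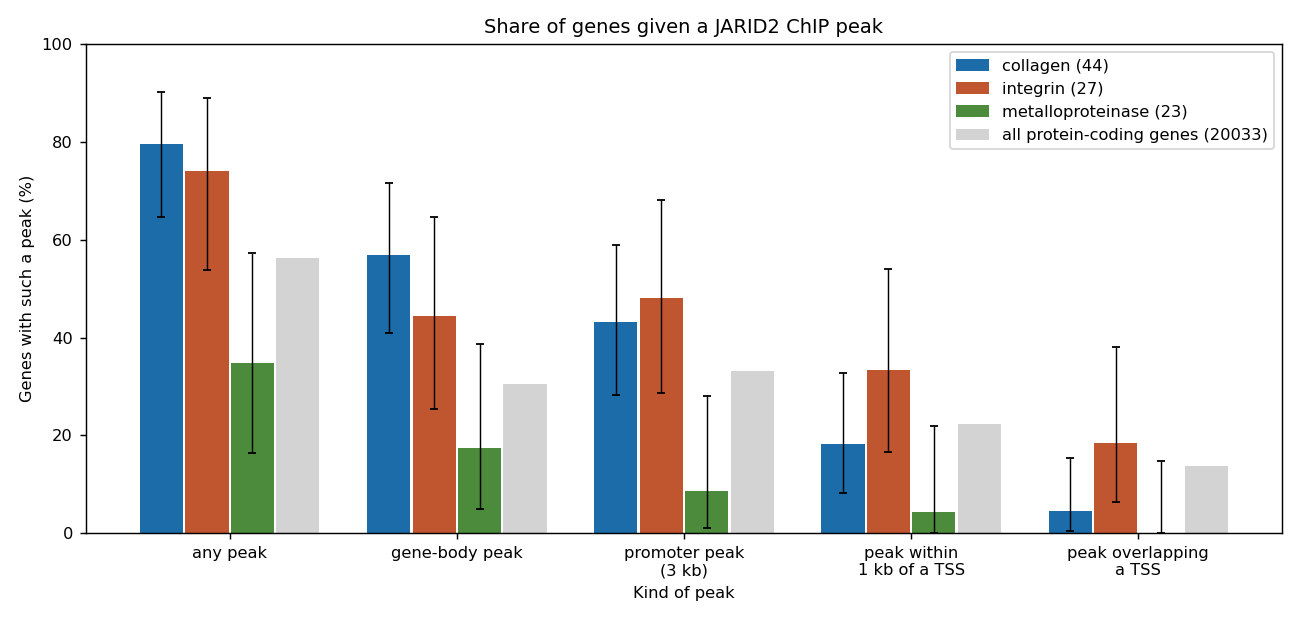
Share of genes (vertical axis, percent) with 5 kinds of peak (horizontal axis) for the 44 collagen, 27 integrin and 23 MMP genes and for all 20033 protein-coding genes in grey; error bars are exact 95% intervals for counting error. Collagen and integrin bars stand above grey for any peak (79.5% and 74.1% against 56.3%), MMP bars stand below grey throughout, and no MMP gene had a peak overlapping a TSS.

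Among the beta chains of integrins, ITGB6 carried the best-supported peak of all 3 families. ITGB6 encodes the beta 6 chain, which pairs with alpha V on epithelial cells and releases latent TGF-beta. Its peak on chromosome 2 (161126020 to 161126914) held 37 tags (95% Poisson interval 26.1 to 51.0), with a fold enrichment of 9.02 and an FDR of 1.16%. The authors placed it in the 1 to 2 kb promoter bin, and its nearest edge lay 846 bp inside the outermost ITGB6 start in the list. That start belongs to a short transcript, and the longest listed ITGB6 transcript begins farther inside the gene. The other 5 ITGB6 peaks had FDRs of 43.9% or more in every case, with fold enrichments of 3.92 to 7.95. ITGB6 thus had a single peak that stood apart and 5 at the level of the bulk of the list.

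The other beta chains had weak promoter peaks or none. ITGB2, the beta chain of leukocyte integrins, had 3 promoter peaks, at 7.10, 5.24 and 4.88, with FDRs of 34.5%, 48.0% and 37.8%. ITGB4, the hemidesmosome chain that pairs with alpha 6, had 6.14 and 5.30. ITGB5, another partner of alpha V, had 5.54. ITGB1, the chain shared by most matrix-binding integrins, had 4.16 with 22 tags and an FDR of 47.2%. ITGB3 and ITGB8 had no promoter peak, and no peak was named for ITGB7. Of the 8 beta chains, 5 therefore had a promoter peak and 1 had one at an FDR of at most 5%.

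Among alpha chains that bind the RGD motif of fibronectin and vitronectin, ITGAV had the most promoter peaks of any gene examined. ITGAV encodes alpha V, the partner of beta 1, 3, 5, 6 and 8 chains. Of its 9 peaks, 5 were promoter peaks. The one over the start of its longest transcript (chromosome 2, 187454362 to 187455205) held 22 tags (13.8 to 33.3) at 6.18 with an FDR of 16.5%, and a neighbour just downstream had 6.18 with 12 tags and an FDR of 38.4%. A pair near shorter internal transcripts, 78.5 and 78.8 kb inside, had larger fold enrichments of 7.44 and 8.0 on only 10 tags each, with FDRs of 39.1% and 39.6%. The order of ITGAV peaks by fold enrichment was thus not their order by FDR. ITGA2B, the platelet alpha chain, had 2 peaks overlapping starts, at 7.95 (14 tags, FDR 34.99%) and 6.18 (9 tags, 48.1%). ITGA8, an alpha chain of kidney and muscle, had 1 promoter peak at 6.61 among 13 peaks. No peak was named for ITGA5, the main fibronectin receptor chain.

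Promoter peaks were present at 1 of 4 alpha chains that bind collagen and 2 of 3 that bind laminin. ITGA2, a collagen receptor chain, had 1 peak, 525 bp upstream of its start, which was broad (1355 bp) and low, with 36 tags at 4.64 and an FDR of 34.6%. ITGA1 and ITGA11, which also bind collagen, had no promoter peak. The ITGA11 peaks, at 9.71 and 7.95, lay about 20 kb upstream (nearest edges 19976 and 21203 bp away) with FDRs of 25.4% and 32.1%. ITGA10 was given no peak. ITGA6, a laminin receptor chain, had a promoter peak at 5.82 with an FDR of 21.5%, at a start 41.6 kb inside. ITGA3, also a laminin receptor chain, had 5.23 over the start of its longest transcript with 24 tags and an FDR of 35.96%, and 4.67 at an internal start. ITGA7 was given no peak.

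Of the leukocyte and other alpha chains, 1 of 7 had a promoter peak. It was ITGAE, the chain of tissue-resident lymphocytes, at 5.49 with an FDR of 46.0%. ITGAX, a chain of dendritic cells and macrophages, had an exon peak of 8.83 on 11 tags, with an FDR of 43.6%. ITGAD had 1 intergenic peak and ITGA9 1 intron peak. No peak was named for ITGA4, ITGAL or ITGAM.

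Fibrillar collagens, the chains of tissue fibres, had promoter peaks at 6 of 11 genes, none at an FDR of at most 20%. COL5A1, which sets the width of collagen I fibres, led with 7.67 near a short internal transcript, and had 6.30 at 2753 bp upstream of its outermost start. COL1A2, a chain of collagen I, had 5.30 at an internal start and 5 intergenic peaks among 7. The other chain of collagen I, COL1A1, was given no peak. COL27A1 had 5.30. COL2A1, the collagen of cartilage, had 5.0 on 33 tags with an FDR of 24.9%. COL24A1 had 4.85, and COL3A1, the partner of collagen I in skin and vessels, 4.24. The best FDR among fibrillar collagens was outside promoters, on exon 3 of 58 of COL24A1, at 6.83 with 23 tags and an FDR of 13.3%. COL11A2, a chain of cartilage fibres, had a peak downstream of the gene at 5.69 with 32 tags and an FDR of 19.35%. COL5A3 was given no peak.

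Collagen IV genes, whose chains make the sheet of basement membranes, lie in head-to-head pairs that share a promoter, and no listed peak lay at the shared starts of the pair COL4A1 and COL4A2. Of 9 peaks between the outermost COL4A1 and COL4A2 features in the list (377.5 kb), 6 were named for these genes and 3 for a small RNA gene inside COL4A2. The nearest COL4A2 peak lay 36638 bp past the outermost listed COL4A2 start, at 4.42. The next, with 9.71 on 15 tags and an FDR of 28.5%, lay in an intron 40750 bp past it. The 2 promoter peaks of COL4A2 were at internal starts, both at 5.30 with 10 tags. COL4A1 had 1 intergenic peak of 5.66. COL4A3, a chain of kidney glomeruli, had a promoter peak of 6.18 and 3 peaks in a 3′ UTR, at 6.47 to 7.06. Its neighbour COL4A4 was given no peak. COL4A5 had exon peaks of 9.71 (14 tags, FDR 23.9%) and 5.30 and an intron peak of 7.95, while its neighbour COL4A6 was given none. The COL4A3 promoter peak lay at an internal start, since an exon peak inside COL4A3 with another gene's name lay upstream of it (228120577 to 228121028). COL18A1, whose end is released as endostatin, had a promoter peak of 4.42, and COL15A1, its relative, had 5 peaks outside promoters at 5.62 to 7.06.

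Collagens that decorate fibres (FACITs) included the gene with most collagen peaks. COL14A1 had 13 peaks, 10 of them in introns, and a promoter peak of 7.95 with 13 tags and an FDR of 29.6%. Its best FDR, 6.05%, came from an intron peak of 6.24 with 29 tags (19.4 to 41.6). COL9A3, a chain of cartilage collagen IX, had a promoter peak of 7.34 with 27 tags (17.8 to 39.3) and an FDR of 8.15%, 1043 bp upstream of a start 8.18 kb inside, and another of 4.34 close to its outermost start. COL9A1, another chain of collagen IX, had an intergenic peak of 5.16 with 43 tags and an FDR of 19.35%, its nearest edge 6409 bp from the start. COL20A1 had 6.18 and 5.09, and COL9A2 had 5.30, 173 bp from the start of a short listed transcript (3186 bp). COL21A1 had 4.55. Promoter peaks were thus present at 5 of 10 FACIT genes, and COL9A3 alone of them had one at an FDR of at most 20%.

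Of the network-forming, anchoring and membrane-spanning collagens, 5 genes had a promoter peak, at best values of 4.21 to 7.06. COL10A1, made by hypertrophic cartilage, had 6.18, and COL8A2 and COL8A1, which form networks in vessels and the cornea, had 4.64 and 4.21. COL13A1, a membrane-spanning collagen, had 7.06 and 5.30 at 1 internal start, and COL25A1, a membrane-spanning collagen of neurons, had 5.04. No promoter peak was named for any of the collagen VI genes. Of these, COL6A1 and COL6A6 had other peaks while COL6A2, COL6A3 and COL6A5 were given none. COL7A1, which anchors skin to its basement membrane, and COL16A1 were given no peak.

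MMP genes had 10 peaks in all, of which 2 were promoter peaks. MMP15, a membrane-bound MMP, had 5.60 at 2392 bp upstream of its start with 14 tags and an FDR of 48.8%. MMP25, a membrane-bound MMP of leukocytes, had 5.30 at 125 bp upstream of its start with 13 tags and an FDR of 44.65%. Both promoter peaks thus lay just below the median fold enrichment of member peaks of all classes, 5.72. Against the median of member promoter peaks, 5.30, MMP25 equalled it and MMP15 lay slightly above. MMP14, the membrane-bound enzyme that activates MMP2, was given no peak, nor was MMP2, MMP16, MMP17 or MMP24. MMP9, a gelatinase linked to invasion, had a single intergenic peak 14713 bp upstream, broad and low at 4.04 with 29 tags and an FDR of 47.25%. MMP28, an MMP of skin repair, had intron peaks of 5.41 and 5.34.

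The cluster of MMP genes on chromosome 11 held 1 peak close to the FDR limit. Over 408 kb from the outer end of MMP20 to the peak beyond MMP13 the list had 11 peaks, 5 of them named for MMPs. MMP27, a poorly known member, had a peak on exon 7 of 10 (102565004 to 102566287) with 40 tags (28.6 to 54.5), 6.78-fold enrichment and an FDR of 5.13%. A neighbour on the same gene was named for a non-coding RNA and had 7.53 with an FDR of 34.9%. MMP1, the interstitial collagenase, had an exon peak of 5.04, MMP20, the enamel protease, had 6.16 and 3.64, and MMP13, the cartilage collagenase, had 5.35 at 28922 bp upstream. No peak was named for MMP7, MMP8, MMP10, MMP3 or MMP12. No stromelysin or matrilysin gene (0 of 5, exact upper limit 52.2%) was given a peak.

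Many of the promoter peaks were not at the main start of their gene. Of the 50 promoter peaks, 23 lay at the outermost start that the list gives for the gene and 21 at the start of its longest listed transcript. A listed start need not be the main one, so these counts can be too high. They include the internal start of COL4A3, and the 23 include a COL3A1 transcript of 495 bp. Of the 11 peaks that overlapped a TSS, 4 were at the start of the longest listed transcript, at ITGAV, ITGA3, ITGA2B and COL8A1. The ITGA2B transcript among these was only 5.15 kb long. The median fold enrichment of promoter peaks was 5.30 (5.01 to 6.18) for members, against 5.91 (5.09 to 7.06) for the 8943 promoter peaks of other protein-coding genes. An FDR within 5% was held by 2.0% of member promoter peaks, against 5.75% of those of other protein-coding genes.

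On transcripts of the minus strand the deposited distance to the TSS runs to the far edge of the peak. Of 32626 peaks on plus-strand transcripts that did not overlap a TSS, 100% had a distance that equalled that of the nearest edge within 2 bp, and of 30777 on minus-strand transcripts 0% did. Over the list 758 minus-strand peaks therefore fell outside the promoter class although their nearest edge was within 3 kb. One of the members was among them, an exon peak of COL11A1, and 4 member promoter peaks moved into the 1 kb range when the nearest edge was used, that of ITGB6 included. Family genes with a promoter peak then numbered 35 in place of 34.

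Exons held a larger share of member peaks than of other peaks. Promoters took 21.3% (exact 95% interval 16.2 to 27.1) of the 235 member peaks, against 29.7% of the 30131 peaks of other protein-coding genes. Exons took 8.94% (5.62 to 13.3), against 2.95%, introns 45.1% (38.6 to 51.7), against 43.7%, and distal intergenic sequence 19.1% (14.3 to 24.8), against 19.3%. The 21 exon peaks lay in transcripts with a median of 35 exons (10 to 67), against 15 exons for the 889 exon peaks of other protein-coding genes. Exon number thus differed along with the exon share, and its part in that share was not tested. The exon peaks had a median of 5.76 (interquartile range 5.04 to 6.78), close to the 5.72 (5.08 to 6.30) of all member peaks. An FDR of at most 20% was held by 2 of the 21 (9.52%), against 3.40% of all member peaks.

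**Figure D3:**
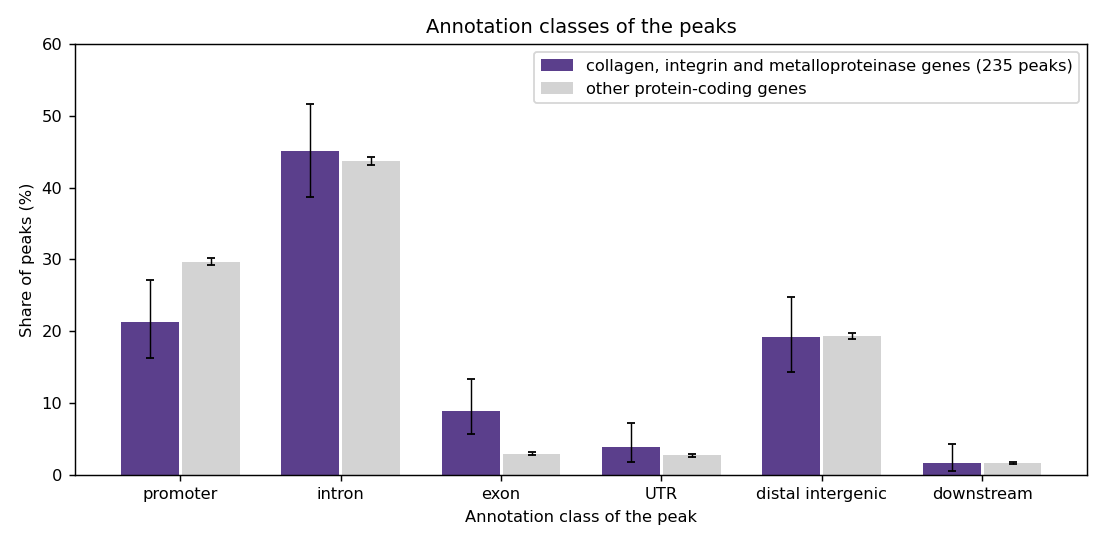
Share of peaks (vertical axis, percent) in 6 annotation classes (horizontal axis) for the 235 collagen, integrin and MMP peaks and for the 30131 peaks of other protein-coding genes; error bars are exact 95% intervals for counting error. The exon bar is 8.94% against 2.95% and the promoter bar 21.3% against 29.7%, while introns and distal intergenic sequence are close.

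The number of peaks per gene rose with listed transcript length. Transcripts are listed only where a peak named them, so this length is not independent of the number of peaks. It can fall far short of the gene, as at COL26A1 (4.43 kb), which had an intron peak 57053 bp upstream of a listed start. The 5 genes with most peaks by rank held 58 of the 235 (24.7%), namely COL14A1 and ITGA8 with 13 each, ITGBL1 with 12, and 2 of the 3 genes with 10 (COL21A1, COL24A1 and COL25A1). Their longest listed transcripts were 172 kb for COL14A1, 206 kb for ITGA8, 266 kb for ITGBL1 and 338 to 492 kb for the last 3. Their median fold enrichments lay between 5.12 and 5.92, below the 5.95 of all peaks. Across the 63 genes, Spearman's rho between the number of peaks and the longest listed transcript was 0.623, and across 11284 protein-coding genes with a peak it was 0.541. Genes share 1 library and are not replicates, so these are descriptions. Counting promoter and gene-body peaks per Mb of longest listed transcript, members had 33.7 (95% Poisson interval 29.0 to 38.9), against 32.6 over all protein-coding genes with a peak. Among genes with 50 to 200 kb the members averaged 4.56 peaks (16 genes), against 3.59 (2676 genes), and above 200 kb 8.67 (9 genes), against 7.84 (840 genes). Per unit of listed transcript length the member genes were close to all genes with a peak, with the limit that listed lengths depend on the peaks. Among genes with a peak, the median longest listed transcript was 39.2 kb for collagens, 66.3 kb for integrins and 14.2 kb for MMPs. The part of gene length in the lower share of MMP genes was not tested, since lengths on this build were not used for genes without a peak.

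**Figure D4:**
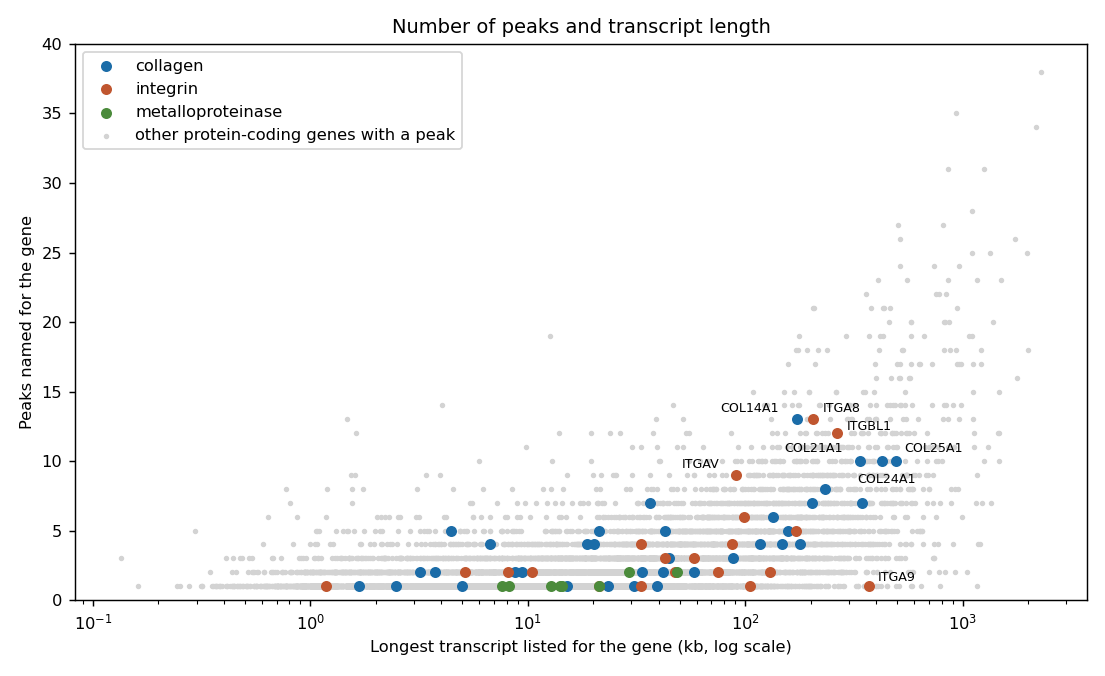
Number of peaks named for each gene (vertical axis) against its longest listed transcript (horizontal axis, kb, log scale), with collagen, integrin and MMP genes in colour over the other protein-coding genes with a peak in grey. The coloured points follow the grey cloud, from 1 to 5 peaks for genes under 10 kb to 13 for COL14A1 and ITGA8, and ITGA9 lies low with 1 peak at 371 kb.

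More peaks lay inside some member genes than carried their names. ITGA9, which encodes the alpha 9 chain, had 1 peak of its own, and 6 further intron peaks inside it, at 5.30 to 7.95, were named RNU7-73P, RPL21P135 or AC093415.2. Over all members, 38 intron or exon peaks inside 18 member genes were named for another gene. COL23A1, with 1 peak of its own, had 5 of these, and the highest had 9.71 with 18 tags and an FDR of 27.6%. COL24A1 had 6 more, the best with 8.99 and an FDR of 20.6%. ITGA2 had 3 more, at 4.43 to 5.37. Family genes given no peak were not searched for peaks with another gene's name. In the other direction, 5 of the 127 intron or exon peaks named for members lay inside another gene, 3 of them named for ITGA1 and 1 for ITGBL1 inside FGF14. None of the 38 reached an FDR of 20%, where the share over all peaks was 4.15%. Peaks inside 1 gene with the name of another were not counted for other protein-coding genes. These counts therefore cannot be called particular to the families.

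In base composition the promoters of the families were near those of all genes, apart from the MMPs. RefSeq promoters were held for 62 of the 94 genes (79 starts). Over the 250 bases upstream, median G and C content was 61.2% for the families, against 62.0% for 22198 starts of all protein-coding genes, and the median number of CG dinucleotides was 12, against 16. The 12 MMP starts had 49.2% and 4.5 CG dinucleotides. The GC box GGGCGG, searched on both strands, was in 49.4% of family starts, against 53.7% of all, and the AP-1 motif TGACTCA, searched likewise, in 1 of 79 (1.27%), against 3.45%. The TATA motif TATAAA, on either strand, was in 20.3% of family starts and 6 of the 12 MMP starts, against 9.01% of all. Family starts of genes with a promoter peak had 64.0% G and C and 16 CG dinucleotides, against 61.2% and 9 for genes without one. For all protein-coding genes the same contrast was 63.6% and 19, against 61.2% and 15. Families and all genes thus leaned the same way. Absence of a motif says only that these letters are not in this window.

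Among genes that process, protect or read the matrix, PLOD3, SRC, TIMP2 and DDR2 had peaks above the highest member value of 9.71. Promoter peaks were present at 11 of 24 genes of collagen processing and crosslinking, 6 of 13 protease inhibitors and activators, 12 of 26 other matrix proteins, 9 of 24 genes of integrin signalling and 2 of 7 other collagen receptors. As shares these were 45.8%, 46.2%, 46.2%, 37.5% and 28.6%, where 33.1% of all protein-coding genes had one. PLOD3, a lysyl hydroxylase of collagen, had 10.39 over a TSS with 42 tags and an FDR of 0, and PCOLCE2, which speeds the trimming of procollagen, 8.89 with an FDR of 4.42%. LOXL1, which crosslinks elastin, had 9.54 with an FDR of 6.85%. SRC, the kinase downstream of integrins, had 10.04 over a TSS with an FDR of 2.14%, and TNS3 and ZYX of focal adhesions had 7.80 and 7.74 with FDRs of 38.6% and 37.9%. Of the protease regulators, SERPINE2 had 7.95 with an FDR of 41.5% and PLAT, a plasminogen activator, 7.06 with an FDR of 48.63%. VCAN, a large proteoglycan, had 8.49 with an FDR of 5.52%, and FBN2 and ELN of elastic fibres had 7.06 each. DDR1 had 6.68 and CD44 4.73. Outside promoters, an intron peak of DDR2, a collagen receptor kinase, reached 17.85 with 96 tags and an FDR of 0, and one of TIMP2, an MMP inhibitor, 10.59 with 66 tags and an FDR of 0. The other genes named here lay within the range of the member peaks, and the lists were not compared by a test.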

How the data were processed

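The labels' protocols describe formaldehyde fixation, sonication, precipitation with the antibody and PCR-amplified libraries made with a transposase. Tools named in the submitters' processing notes are bcl2fastq, Bowtie (version 0.12.8), both MACS and MACS2, and ChIPseeker, with hg19 as the build. The caller version behind the list, its thresholds and how the input was used are not stated in the labels or headers. Each peak has, per the file headers, a tag count, a fold enrichment (a linear ratio) and an FDR in percent, all as deposited. A further deposited score had a damaged header. Its lowest value, 30, fits −log10 p multiplied by 10, which the sources do not state, and it served only as a threshold.

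Members were the symbols fitting the collagen, integrin and MMP patterns. Denominators were the 20033 protein-coding genes of RefSeq GRCh38.p14, by symbol or a synonym of 1 gene, used for names and promoter sequences only. Each peak carries the name of 1 gene. Role classes and the 5 lists of related genes came from general knowledge. Members, lists and limits were chosen with earlier results of these data known. With 1 library no test was run. Python 3.11.15, pandas 2.3.3 and scipy 1.17.1 were used, and the code was checked on simulated peaks. Named genes were those with an FDR of at most 5%, up to 4 per role class by promoter fold enrichment, those with most peaks, paired and clustered genes, genes without peaks and up to 3 per related list. Others are examples chosen after their values were seen. One gene that this rule would name is not reported here.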

Additional observations from a re-analysis of the deposited data

How the results depend on the processing

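Counts of genes and peaks depended on the peak threshold and the promoter reach. With a score of at least 50, 23 family genes had a peak, 7 a promoter peak, the median fold enrichments were 6.47 for all member peaks and 7.34 for promoter peaks, and there were 3.44 peaks per Mb. With the FDR held to 20% these were 8, 3, 6.51, 7.34 and 1.09, and in the top 25% by fold enrichment 25, 8, 7.36, 7.81 and 5.62. Family genes with any peak were then 24.5%, 8.51% and 26.6%, against 18.3%, 8.04% and 25.7% of all protein-coding genes. Those with a promoter peak were 7.45%, 3.19% and 8.51% of family genes, against 9.89%, 5.44% and 11.2% of all. For promoter peaks the family shares were thus lower than those of all genes under these 3 stricter thresholds and higher as reported. The exact interval for 7 of 94 genes, 3.05% to 14.7%, held the 9.89% of all genes. The interval for the share as reported, 26.5% to 46.7%, held the 33.1% of all genes. No interval was given for the counts of 3 and 8 genes, so no reversal can be read from these shares. The differences and their cause were not tested. Within 1 kb, 18 family genes had a promoter peak and 7 had one overlapping a TSS, with 0 at an FDR of at most 5% in both. The ITGB6 peak lies beyond 1 kb by the deposited distance and within it by the nearest edge, an alternative added after the data were seen. With the median in place of the longest listed transcript there were 71.3 peaks per Mb. Dropping synonyms, ITGBL1 or neighbouring duplicates changed no result by more than its interval or 1.5 times. No paired analysis was possible because there was 1 ChIP library and no test. With 9 to 48 tags per member peak, depth limits each value, and fold enrichment takes repeated values, 6.18 at 25 member peaks (10.6%).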
